A study of Danio rerio with 5 samples.

Results

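The Argonaute genes of the zebrafish were followed in 5 messenger RNA libraries of whole embryos at the shield stage of gastrulation, 6 h after fertilization. The genes were chosen by identity: ago1 (ENSDARG00000092644) and ago2 (ENSDARG00000061268) by identifier, and ago3a, ago3b and ago4 by name. Of these 5 genes, 4 had a row among the 26158 gene identifiers of the tables, and all 4 were among the 14097 genes counted as measured (mean level of at least 1 CPM, defined below). ago3a is ENSDARG00000059888. ago3b is ENSDARG00000063079, which the names table calls AGO3, a RefSeq synonym of ago3b and of no other gene. ago4 (ENSDARG00000100854) had no row and is not analysed here.

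Argonaute proteins hold the mature microRNA and present its seed to messenger RNAs. They then recruit TNRC6 proteins, which bring in the deadenylation and decapping enzymes. Ago2 is the vertebrate Argonaute known for slicing, the cut of a paired RNA strand, and this activity matures a microRNA precursor that Dicer does not process. Ago1 and Ago3 are best known for acting through TNRC6. In the early zebrafish embryo the most abundant microRNA is miR-430, a family made at the onset of zygotic transcription that clears many maternal messenger RNAs.

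Each of the 5 groups was a single library of 15 pooled embryos. The wild type embryos were labelled TU/AB/TL/TLF and were not injected. The other 4 libraries came from embryos labelled MZdicer (hu896/hu896), which lack maternal and zygotic Dicer, the enzyme that matures most microRNAs. One of these was not injected. The others had received, at the 1-cell stage, 1 nl of a 25 µM stock of a miR-430 duplex, of a miR-430 hairpin named for Ago2 (Ago2-hairpin), or of that hairpin with 3 phosphorothioate bonds (the 3xPS hairpin), a chemical change of the backbone that slows nucleases. No library held mutant embryos injected with another RNA, so an effect of injection cannot be told apart from one of miR-430. Strain and loss of Dicer cannot be told apart either.

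Library totals ran from 14867084 counts in MZdicer to 26300080 in wild type. With 1 library a group no difference has a replicate check, so no p-value is given. Square brackets give 95% intervals, which reflect counting error alone. Levels are CPM (counts-per-million of the library total, scaled with TMM factors), and a gene was called when its CPM differed at least 2-fold and the interval excluded equality. DICER1, the mutated gene, was at 36.5 CPM in wild type and between 20.1 and 23.0 CPM in the 4 mutant libraries. The counts do not show whether its transcript carries the mutation. All 18 shield-stage markers found in the tables reached 1 CPM in every library. Their summed level was 11698 CPM in wild type and between 7886 and 9279 CPM in the mutant libraries. The 9 markers found for tissues not yet formed summed to 1.89 to 4.12 CPM, and 3 or 4 of them had no counts in each library. None of the 9 reached 1 CPM in wild type. ELAVL3 did in the 4 mutant libraries, at 2.31 to 3.23 CPM, and made up most of each mutant sum. Whether the difference in shield-stage markers has a part in the Argonaute values below was not tested.

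All 4 measured Argonaute genes were higher in MZdicer than in wild type. ago3b differed most, 8.72-fold [7.57, 10.1], and ago2 least, 2.58-fold [2.49, 2.66]. ago1 was 6.82-fold higher [5.41, 8.66] and ago3a 5.79-fold higher [4.65, 7.26]. The injected libraries then split the family. The duplex library had ago1 near its wild type level, but ago1 was 1.91-fold above wild type after the hairpin and 3.99-fold after the 3xPS hairpin. ago3b stayed 5.58-fold to 9.21-fold above wild type after the injections. In whole embryos fewer cells that hold a transcript and less of it per cell cannot be told apart. The libraries were made from poly(A)+ RNA, so a change of tail length cannot be told apart from a change of amount either.

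**Figure D1:**
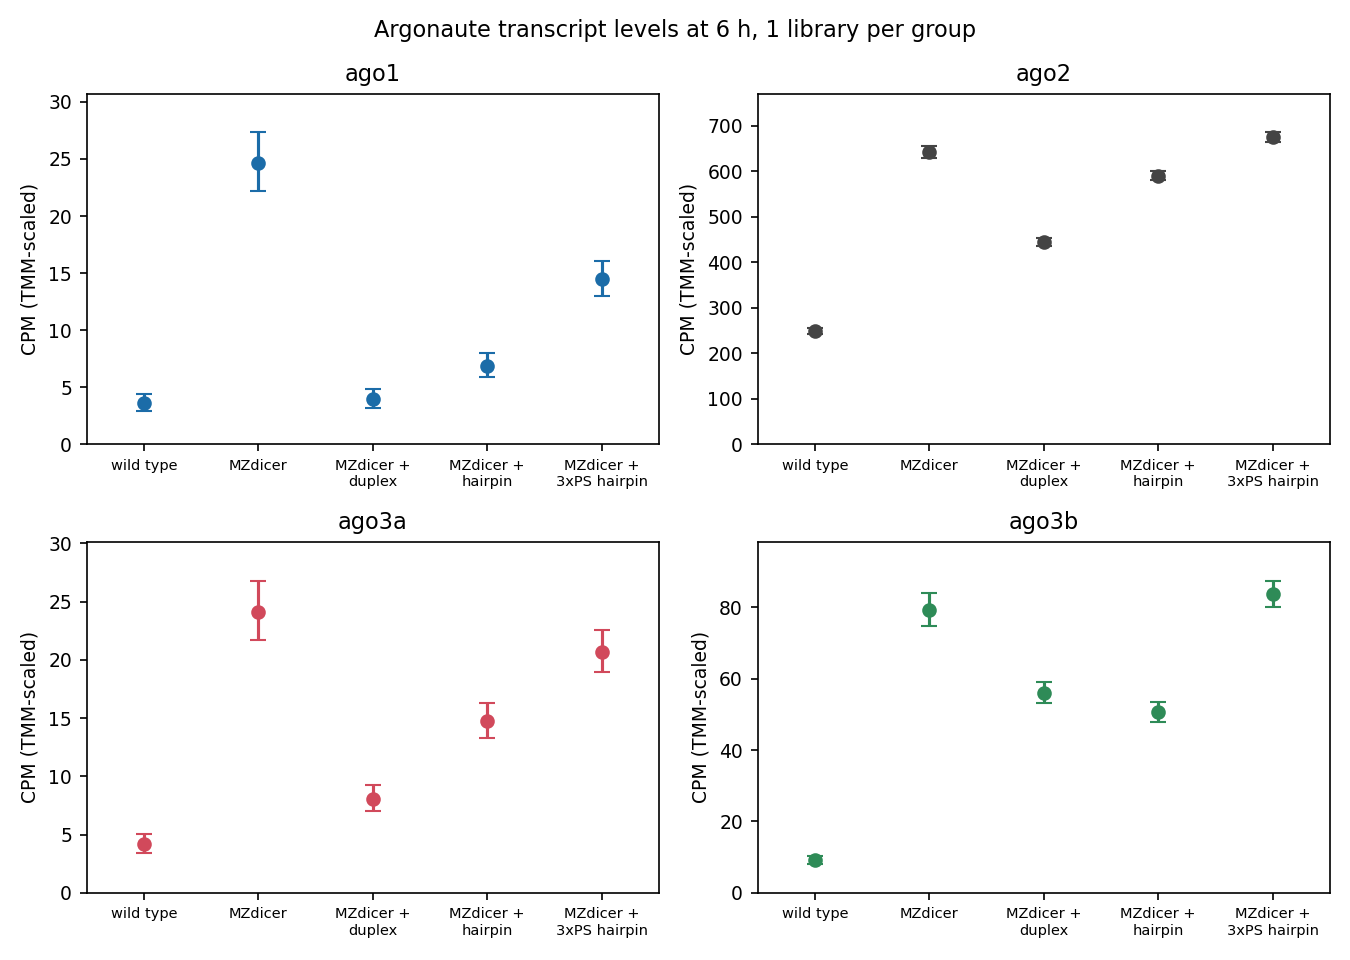
Level of each Argonaute gene (y axis, TMM-scaled CPM, from 0) in the 5 libraries (x axis), 1 point per library, with bars for the 95% exact Poisson interval of the count. ago1 is at 3.62 CPM in wild type, 24.7 in MZdicer and 3.95 after the duplex, while ago3b is at 9.09, 79.2 and 56.0.

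ago2 had the highest counts of the family, and also the highest level per length, given further on. It was at 249 CPM in wild type (6340 counts), 642 CPM in MZdicer (9605 counts), 444 CPM after the duplex, 590 CPM after the hairpin and 675 CPM after the 3xPS hairpin. All mutant libraries were thus above wild type, and no counting interval of one library overlapped that of another. Against MZdicer it was 1.45-fold lower after the duplex [1.41, 1.49], 1.09-fold lower after the hairpin [1.06, 1.12] and 1.05-fold higher after the 3xPS hairpin [1.03, 1.08]. None of these was called, since each is under 2-fold. Against wild type ago2 remained 1.78-fold higher after the duplex [1.73, 1.84], 2.37-fold higher after the hairpin [2.298, 2.44] and 2.71-fold higher after the 3xPS hairpin [2.63, 2.79].

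ago1 had the widest span between the mutant libraries, taken as a ratio. It was at 3.62 CPM in wild type (92 counts), 24.7 CPM in MZdicer (369 counts), 3.95 CPM after the duplex (100 counts), 6.90 CPM after the hairpin (170 counts) and 14.5 CPM after the 3xPS hairpin (358 counts). Wild type and the duplex library did not differ beyond counting error (1.09-fold [0.813, 1.46]), and the other neighbours in this order had intervals that do not overlap. Against MZdicer ago1 was 6.25-fold lower after the duplex [4.999, 7.88], 3.58-fold lower after the hairpin [2.97, 4.31] and 1.71-fold lower after the 3xPS hairpin [1.47, 1.98], the last of which was not called. Of 14097 measured genes, 80 had a lower ratio than ago1 in the duplex comparison, 51 in the hairpin comparison and 344 in the 3xPS comparison, on the log2(CPM + 0.5) scale. These comparisons share the MZdicer library.

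ago3a ran in the same order as ago1 but with smaller differences among the mutant libraries. It was at 4.17 CPM in wild type (106 counts), 24.1 CPM in MZdicer (361 counts), 8.05 CPM after the duplex (204 counts), 14.7 CPM after the hairpin (363 counts) and 20.7 CPM after the 3xPS hairpin (513 counts). The level intervals of MZdicer and the 3xPS hairpin library overlapped, and those of all other pairs did not. ago3a was 2.998-fold lower after the duplex than in MZdicer [2.52, 3.58], 1.64-fold lower after the hairpin [1.41, 1.90] and 1.17-fold lower after the 3xPS hairpin [1.02, 1.34]. It was called in the duplex comparison only, and there it stayed 1.93-fold above wild type [1.52, 2.47], just under the threshold.

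ago3b followed another order. It was at 9.09 CPM in wild type (231 counts), 79.2 CPM in MZdicer (1185 counts), 56.0 CPM after the duplex (1419 counts), 50.7 CPM after the hairpin (1249 counts) and 83.7 CPM after the 3xPS hairpin (2073 counts). Its lowest mutant level was in the hairpin library, and the duplex library was 1.105-fold above it [1.02, 1.19] with overlapping level intervals, the reverse of the order of the other 3 genes. Against MZdicer it was 1.41-fold lower after the duplex [1.31, 1.53] and 1.56-fold lower after the hairpin [1.44, 1.69]. The 3xPS hairpin library did not differ from MZdicer beyond counting error (1.06-fold [0.983, 1.14]). Against wild type ago3b was 6.16-fold higher after the duplex [5.36, 7.11], 5.58-fold higher after the hairpin [4.84, 6.45] and 9.21-fold higher after the 3xPS hairpin [8.04, 10.6]. In the comparison of the duplex library with wild type, 60 of all measured genes had a higher ratio than ago3b.

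**Figure D2:**
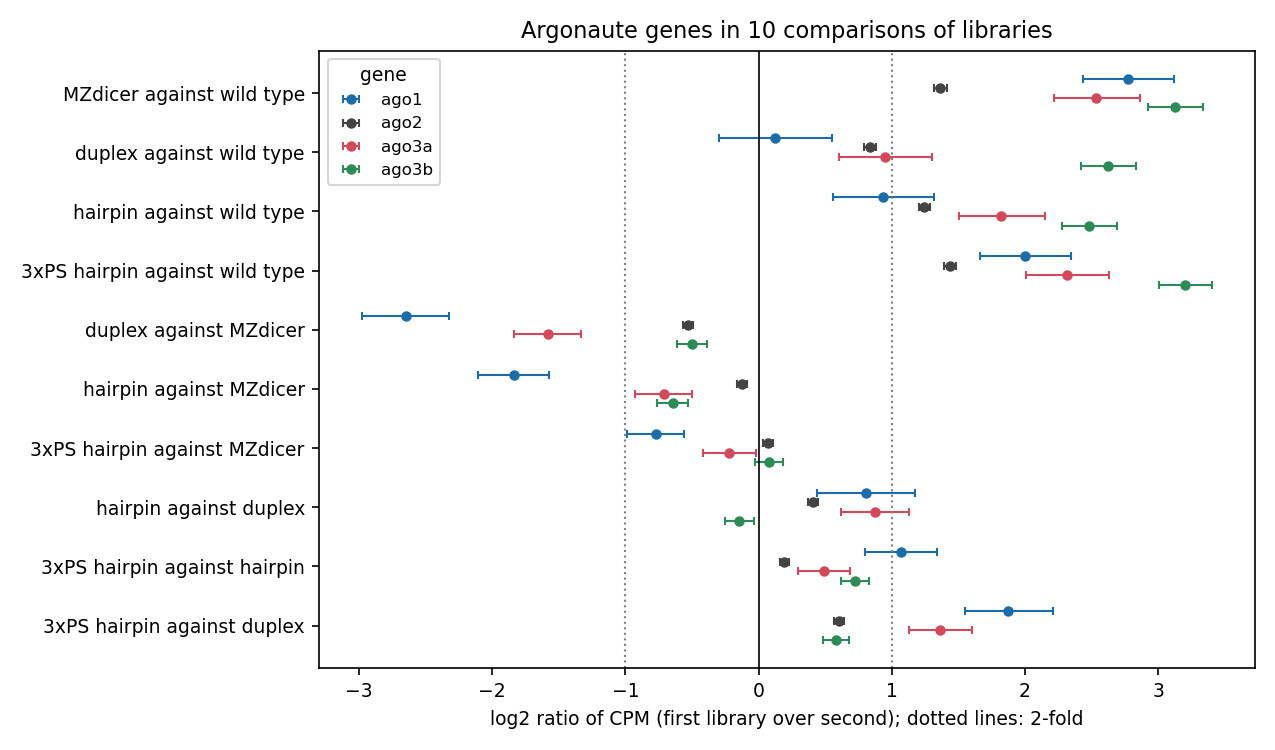
Log2 ratio of CPM (x axis, first library over second) for the 4 Argonaute genes in the 10 comparisons of libraries (y axis), with bars for the 95% exact conditional binomial interval and dotted lines at 2-fold. Against wild type the duplex row spans 1.09-fold for ago1 to 6.16-fold for ago3b.

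Set against all measured genes, the Argonaute calls in MZdicer were 4 of 4 higher, where 18.8% of all genes were called higher. The median log2 ratio was 2.51 over the 4 genes and 0.02 over all measured genes. By their ratio ago3b stood above 98.9% of all measured genes, ago1 above 98.0%, ago3a above 97.4% and ago2 above 89.6%. In the duplex library 2 of 4 were lower than in MZdicer (ago1 and ago3a), against 7.2% of all genes, and the medians were -1.03 over the Argonaute genes and 0.01 over all. In the hairpin library 1 of 4 was lower (ago1), against 2.97% of all genes, with medians of -0.67 and -0.01. In the 3xPS library 0 of 4 were lower, against 1.72% of all genes, with medians of -0.07 and -0.01. Members were few and were picked with earlier results of these libraries known, so the counts describe these genes only.

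**Figure D3:**
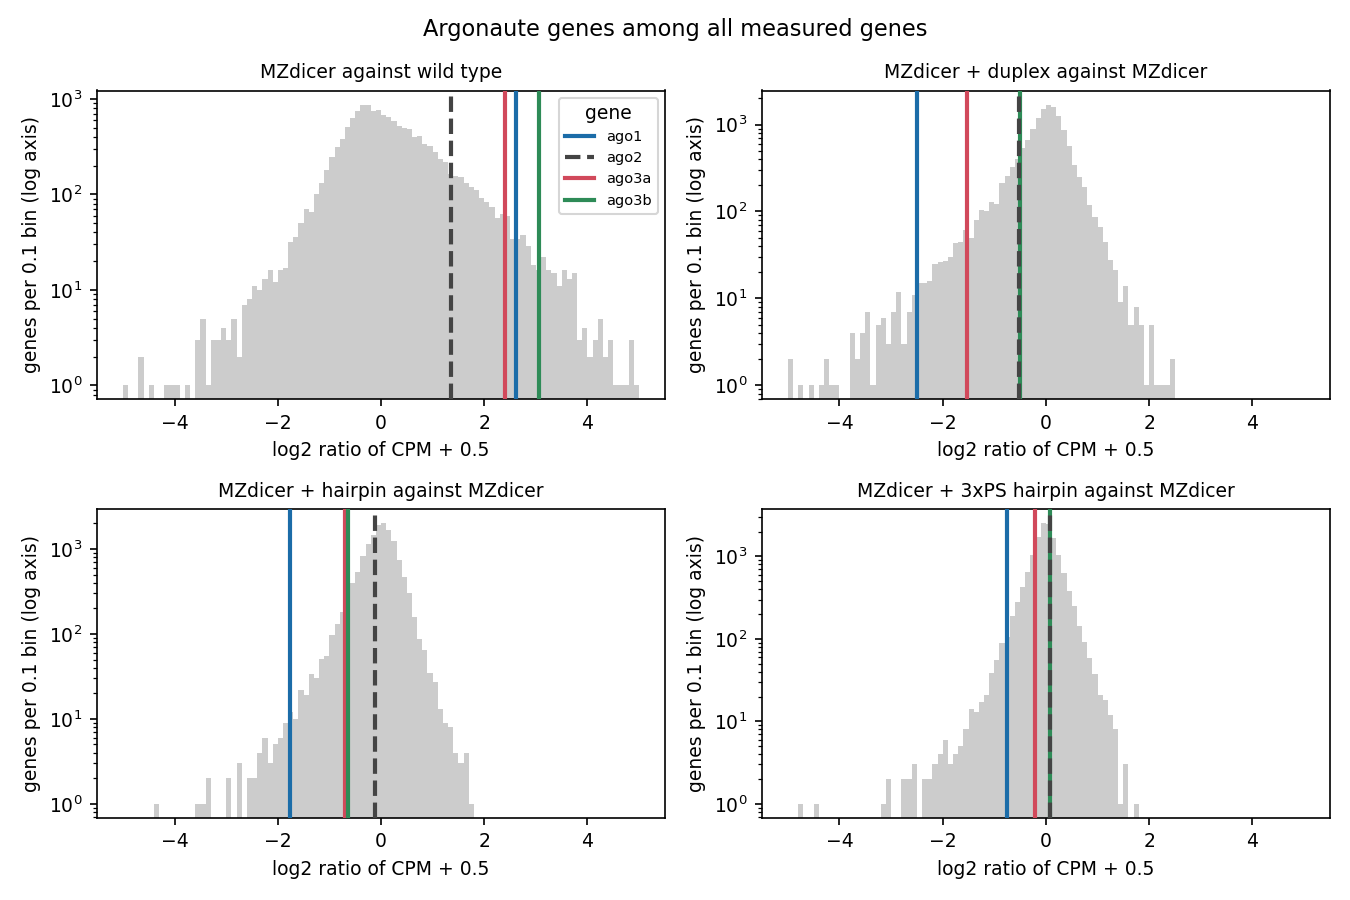
Number of measured genes (y axis, log axis) in bins of 0.1 of the log2 ratio of CPM + 0.5 (x axis, values beyond 5 in either direction set to 5) in 4 comparisons, with the 4 Argonaute genes as vertical lines (ago2 dashed). In MZdicer against wild type all lines lie to the right of the bulk of genes, and in the duplex comparison ago1 and ago3a lie in the left tail, while ago2 and ago3b nearly coincide at -0.53 and -0.50.

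Against wild type, 1 of 4 Argonaute genes was called higher in the duplex library (ago3b), where 11.2% of all genes were. In the hairpin library 3 of 4 were higher (ago2, ago3a and ago3b), against 15.9% of all genes, and in the 3xPS library 4 of 4, against 17.3%. ago1 in the hairpin library was at 1.91-fold wild type [1.47, 2.48], just under the threshold, and was called at 2.09-fold with the second count column described below. Upper-quartile scaling moved every gene by -0.20 on the log2 scale in MZdicer against wild type, and changed the genes called over the whole table from 2648 higher and 1024 lower to 2105 higher and 1602 lower. For the duplex, hairpin and 3xPS libraries against wild type the higher and lower genes were 1573 and 604, 2235 and 986, and 2433 and 979. With upper-quartile factors they were 1294 and 809, 1772 and 1443, and 1933 and 1493. Under that scaling the MZdicer to wild type ratios of ago1, ago2, ago3a and ago3b were 5.93, 2.24, 5.03 and 7.58, and all 4 genes were still called.

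The 3 injected molecules were given at the same volume and stock concentration and read at the same time, which allows them to be set side by side. Between the hairpin and the 3xPS hairpin, which differ by 3 phosphorothioate bonds, all 4 genes were higher after the 3xPS form. ago1 was 2.09-fold higher [1.74, 2.53], ago3b 1.65-fold [1.54, 1.77], ago3a 1.41-fold [1.23, 1.61] and ago2 1.14-fold [1.12, 1.17]. Only ago1 was called, 1 of 4 against 1.14% of all genes. The median log2 ratio was 0.60 over the Argonaute genes and 0.00 over all measured genes. For ago1, 62 of 14097 genes had a higher ratio, so this gene lay near the upper end of the difference between these libraries. Which part of these differences lies between embryo pools was not measured.

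Between the hairpin and the duplex no Argonaute gene was called, 0 of 4 higher against 3.16% of all genes. ago3a was 1.83-fold higher after the hairpin [1.54, 2.18], ago1 1.75-fold [1.36, 2.26] and ago2 1.33-fold [1.30, 1.36], while ago3b was 1.105-fold lower. Between the 3xPS hairpin and the duplex 2 of 4 were called higher after the 3xPS form, against 4.36% of all genes. These were ago1 at 3.66-fold [2.93, 4.62] and ago3a at 2.57-fold [2.18, 3.04]. ago2 was at 1.52-fold [1.48, 1.56] and ago3b at 1.49-fold [1.40, 1.60], so both lay above equality without reaching the threshold. The 3 pairs were compared with counting intervals only, and a gene that missed the threshold is not shown to respond alike to both molecules.

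Levels of different genes were compared per length, with the authors' RPKM values (reads scaled to the length of the gene model and to the library). The gene models were 9422 bases for ago2, 4368 for ago3b, 2583 for ago3a and 2565 for ago1. Which parts of each transcript they cover is not given in the sources used here, and a model that lacks part of its transcript changes the RPKM. ago2 was at 25.6 RPKM in wild type, 68.6 in MZdicer, 47.2 after the duplex, 64.0 after the hairpin and 72.1 after the 3xPS hairpin. ago3b came second in every library, at 2.01 RPKM in wild type and between 11.9 and 19.3 in the mutant libraries. ago1 and ago3a were at 1.36 and 1.56 RPKM in wild type and level with each other in MZdicer, at 9.68 and 9.40 RPKM.

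The sum of the 4 genes was 30.5 RPKM in wild type, 106 in MZdicer, 64.7 after the duplex, 84.4 after the hairpin and 105 after the 3xPS hairpin. ago2 made up 83.8% of this sum in wild type, 64.8% in MZdicer, 73.0% after the duplex, 75.8% after the hairpin and 68.6% after the 3xPS hairpin. Its share was highest in wild type, although its own level was lowest there. The share of ago3b was 6.59% in wild type and between 14.0% and 19.8% in the mutant libraries, with the highest value in the duplex library. The share of ago1 was 9.14% in MZdicer and 2.38% after the duplex, and that of ago3a 8.88% and 4.82%.

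**Figure D4:**
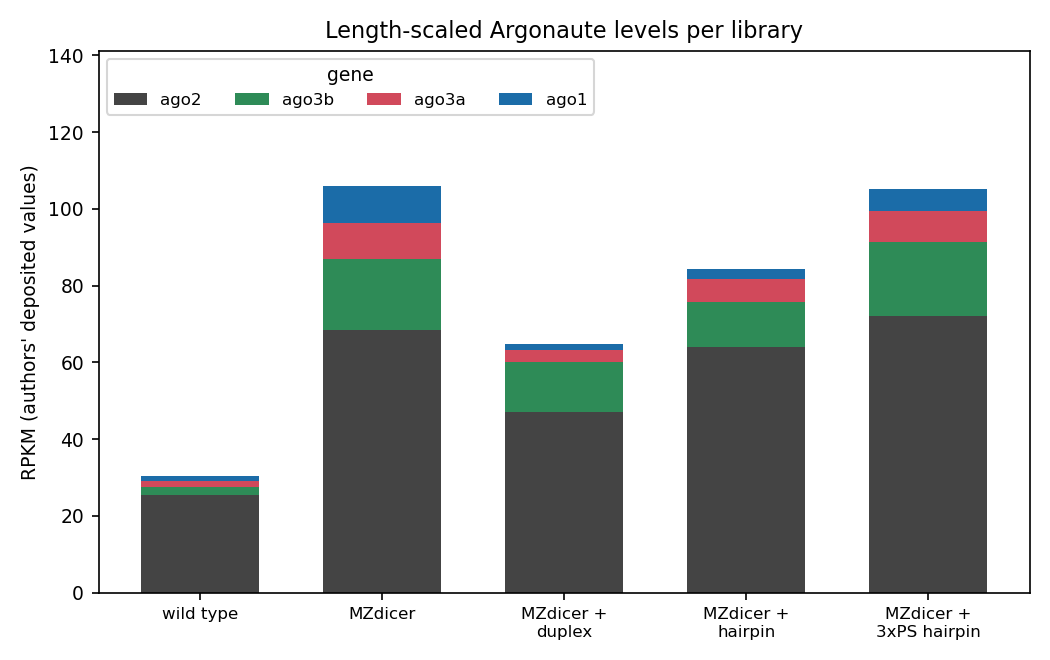
Authors' RPKM of ago2, ago3b, ago3a and ago1 stacked (y axis, from 0) in the 5 libraries (x axis), 1 library a group. The stack is 30.5 in wild type, 106 in MZdicer and 64.7 after the duplex, and ago2 is the lowest and largest block in each.

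ago1 and ago3a lie next to each other on chromosome 16 of the RefSeq assembly GRCz12tu, with no other protein-coding gene between them. ago2, ago3b and ago4 lie apart from each other on chromosome 19. The authors deposited a second count column that is never below the first and is fractional in some genes. In it ago1 gained 3 counts in wild type, 29 in MZdicer, 18 after the duplex, 21.5 after the hairpin and 31 after the 3xPS hairpin. ago3a gained 3, 30, 18, 22.5 and 31 counts in the same libraries. The gains of the neighbours thus matched within 1 count in every library, and ago2 and ago3b gained none. How reads were assigned to this column is not given in the sources used here.

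The gain was 18.0% of the first count of ago1 in the duplex library, its largest share, and 3.26% in wild type. For ago3a the gain ran from 2.83% in wild type to 8.82% in the duplex library. How many reads of the pair the first column leaves out is not known. With the second column the ratio of the duplex library to wild type was 1.25 for ago1 and 2.05 for ago3a, which was then called. A further alternative, chosen after the data were seen, summed the first counts of the neighbours. The sum was 1.63-fold higher after the 3xPS hairpin than after the hairpin, under the threshold that ago1 alone had passed. The sum had a ratio of 0.246 for the duplex library against MZdicer and 0.443 for the hairpin library, so it remained at least 2-fold lower in both. Against wild type the sum was at a ratio of 1.54 in the duplex library and 2.78 in the hairpin library. There ago1 alone was at 1.09 and 1.91. The gene on the other side of ago1, dhdds, was at 14.6 CPM in wild type and between 11.5 and 12.5 CPM in the mutant libraries, a ratio of 0.859 in MZdicer against wild type where that of ago1 was 6.82.

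**Figure D5:**
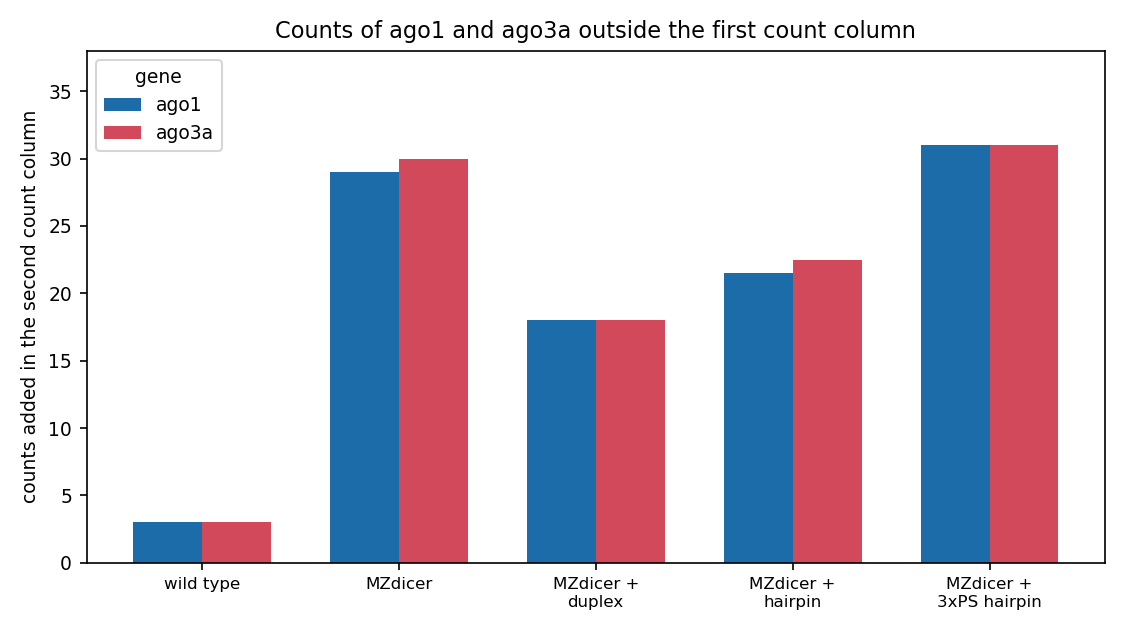
Counts added in the second deposited count column over the first (y axis, from 0) for ago1 and ago3a in the 5 libraries (x axis). The bars of the neighbours differ by at most 1 count in each library, with 3 and 3 in wild type, 29 and 30 in MZdicer and 21.5 and 22.5 after the hairpin.

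The genes whose profile over the 5 libraries was most like each Argonaute gene were taken from 9478 measured genes with a symbol of their own. Likeness was the root mean square difference of the centred log2(CPM + 0.5) values, and with 5 points it is a description only. For ago2 the closest were R3HDM4 (0.0324), SLC12A8 (0.0362) and LMO3 (0.0393). For ago3a they were MTMR9 (0.0630), cers4a (0.0844) and STAM (0.0868), a gene at 35.6 CPM in wild type, 196 in MZdicer and 63.2 after the duplex. For ago1 they were GPAM (0.176), VPS41 (0.200) and TP63 (0.202), so the nearest profile to ago1 was less close than any of those named for ago2 or ago3a. For ago3b they were si:ch211-261n11.8 (0.0926), TBC1D2 (0.133) and DCAF6 (0.174). In wild type si:ch211-261n11.8 had no counts and TBC1D2 was at 0.0393 CPM, and cers4a was at 0.433 CPM. These levels lie below the added 0.5, so the likeness of these genes depends on that pseudocount. Within the family ago2 and ago3a had the smallest difference (0.401), followed by ago1 and ago3a (0.417), and ago1 and ago3b had the largest (0.860). Among the genes compared, however, 2417 were nearer to ago2 than ago3a was, where 95 were nearer to ago1 than ago3a was. The smallest difference thus does not mark ago2 and ago3a as especially alike.

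Partners of Argonaute in the silencing complex came next. MZdicer had 3 of 12 measured partners higher than wild type and 0 lower, where 18.8% of all measured genes were higher and 7.26% lower, so the count is near the background. Their median log2 ratio was 0.17, beside 0.02 over all genes. DDX6, a helicase that links silencing to decapping, was 5.54-fold higher [4.71, 6.53] and TNRC6C 2.86-fold higher [2.49, 3.29]. The third was an identifier named HSPA8 (ENSDARG00000037403) with 3.34 CPM in MZdicer and 0.118 CPM, 3 counts, in wild type, 28.3-fold higher [9.15, 142]. A second identifier with that symbol was at 5024 and 5550 CPM. Of the 4 measured TNRC6 genes, which were looked at as a set after their values were seen, TNRC6A was at 1023 CPM in wild type and 1457 in MZdicer, 1.42-fold. tnrc6ba was at 1.20-fold and tnrc6bb.1 at 1.56-fold. A further gene, tnrc6bb.2, fell below the filter with 8 to 23 counts per library in the first count column, but had 245.5 to 374 in the second column.

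After the duplex 2 of the 12 partners were lower than in MZdicer, the HSPA8 identifier above and FMR1, an RNA-binding protein gene that went from 110.8 to 47.6 CPM. After the hairpin 1 was lower (FMR1 at 53.5 CPM) and after the 3xPS hairpin 0 were, and none was higher in any of the 3. Over all measured genes the shares lower were 7.2%, 2.97% and 1.72% in these comparisons, and counts this small are not set apart from them. DDX6 was 1.84-fold lower after the duplex [1.64, 2.06], 1.497-fold lower after the hairpin [1.34, 1.67] and 1.03-fold higher after the 3xPS hairpin [0.929, 1.13]. TNRC6C was 1.804-fold lower after the duplex [1.60, 2.04], 1.51-fold lower after the hairpin [1.34, 1.70] and 1.13-fold lower after the 3xPS hairpin [1.01, 1.27]. The other measured TNRC6 genes differed less after the duplex. TNRC6A was 1.30-fold lower [1.27, 1.32], tnrc6bb.1 1.20-fold lower [1.13, 1.26] and tnrc6ba 1.08-fold higher [1.02, 1.15].

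Of 24 measured genes on the deadenylation and decay list, 10 were higher in MZdicer and 0 were lower, beside 18.8% and 7.26% of all measured genes. The list is wider than the enzymes brought in by Argonaute, since it also holds LSM14B, lsm14aa, BTG1, BTG2 and tob1b. The median log2 ratio was 0.61, beside 0.02 over all. LSM14B, an RNA-binding protein gene of messenger RNA granules, was 15.98-fold higher [14.1, 18.2]. The deadenylase genes CNOT7 and CNOT8 were 3.98-fold [3.15, 5.06] and 3.09-fold [2.93, 3.26] higher, and PAN2 3.30-fold [3.04, 3.59]. After the duplex 4 of 24 were lower, and after either hairpin 1 was, LSM14B both times, beside 7.2% of all genes after the duplex, 2.97% after the hairpin and 1.72% after the 3xPS form. LSM14B went from 172 CPM in MZdicer to 8.68 after the duplex, 33.4 after the hairpin and 32.5 after the 3xPS hairpin. It thus had nearly the same level with both hairpins, where ago1 differed 2.09-fold. CNOT8 was at 258, 212, 258 and 264 CPM in the same libraries.

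Of 14 measured genes on the microRNA processing list, 2 were higher in MZdicer and 0 were lower. Of all measured genes 18.8% and 7.26% were, so the count is no higher than the background. The list is wider than the enzymes that make microRNAs, since it also holds LIN28A, LIN28B, tut4, adar and henmt1. The median log2 ratio was -0.10, beside 0.02 over all. The called genes were DGCR8, the partner of Drosha, at 3.72-fold [3.54, 3.92], and PRKRA, a Dicer partner, at 2.61-fold [2.15, 3.17]. None of the 14 was called in any injected library against MZdicer. DGCR8 was at 82 CPM in wild type, 305 in MZdicer, 218 after the duplex, 289 after the hairpin and 295 after the 3xPS hairpin. Its level after the 3xPS hairpin did not differ beyond counting error from that in MZdicer (1.03-fold lower [0.997, 1.07]). The same held against the hairpin library (1.02-fold higher [0.989, 1.06]), so its place in the order was not resolved. As for ago2, the lowest mutant level was after the duplex.

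Among 12 measured genes of the Piwi branch and germ granules, 5 were higher in MZdicer and 0 were lower, beside 18.8% and 7.26% of all measured genes. The median log2 ratio was 0.56, beside 0.02 over all. The Piwi genes themselves, the nearest relatives of the Argonautes, were not called. PIWIL1 was at 49.3 CPM in wild type and between 31.5 and 40.1 CPM in the mutant libraries, and PIWIL2 was at 15.5 and between 18.0 and 22.2 CPM. The called genes included TDRD1 at 29.6-fold [24.6, 35.9], buc at 23.0-fold [19.8, 26.8], TDRD6 at 12.1-fold [10.9, 13.5] and DAZL at 2.65-fold [2.24, 3.15]. After the duplex 6 of the 12 were lower (7.2% of all genes), after the hairpin 3 (2.97%) and after the 3xPS form 1 (1.72%). TDRD1 was 12.02-fold lower after the duplex, 2.59-fold lower after the hairpin and 1.74-fold lower after the 3xPS hairpin. This is the order of ago1, but also that of the shares over all genes. Against wild type TDRD1 was still 2.46-fold higher after the duplex [1.99, 3.07], where ago1 was at 1.09-fold. Of the maternal and oocyte list, MZdicer had 8 of 21 measured genes higher and 1 lower, beside 18.8% and 7.26% of all genes. Their sum was 4511 CPM in wild type, 5282 in MZdicer and between 4120 and 4683 CPM with injection. Few genes dominate this sum: pou5f3 was at 3277 CPM in wild type and 2475 in MZdicer, and CCNA1 at 51.6 and 1027 CPM. The median log2 ratio of the list in MZdicer was -0.02, beside 0.02 over all genes, so the changes of the sum and the median differ in sign. The part of maternal transcripts in the Argonaute values was not tested.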

How the data were processed

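Poly(A)+ RNA of 5 zebrafish libraries was sequenced after strand-specific library preparation. TopHat2 2.0.8, CASAVA 1.8.2 and build Zv9 (danRer7) are named, per the submitters' processing notes. The counting tool and annotation, and whether counting used strand, is information not given in the sources used here. The authors deposited whole-number read counts per gene, which gave the main values, further columns of estimated counts, which were rounded as alternatives, and RPKM values, which equal counts divided by the deposited length and the column's sum.

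Scaling used TMM factors (0.967 to 1.02) from edgeR 4.0.16 under R 4.3.3, with Python 3.11.15 and SciPy 1.17.1 for the rest. Genes with a mean CPM of at least 1 were measured. A call needed a 2-fold CPM ratio and a 95% exact conditional binomial interval that excluded equality. Log2 ratios used a pseudocount of 0.5, which understates differences of low genes. Intervals cover counting error only, since each group has 1 library. PCR copies were not told apart by molecular identifiers, and such copies would make the intervals too narrow. The script for calls was checked on simulated data. The simulated counts had counting error only, so that check does not cover differences between embryo pools. Alternatives were other scalings (DESeq2 1.42.0 size factors, upper quartile, total counts), count columns, RPKM, filters, fold thresholds, pseudocounts and thinning.

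Symbols came from a names table (18804 of 26158 identifiers), and the rest held 12.4% to 12.9% of the counts. Lists of 21, 34, 20, 16 and 27 symbols matched 15, 24, 14, 12 and 22 identifiers in the tables for silencing partners, decay, processing, Piwi branch and maternal genes. The members and lists were chosen with earlier results of these data known. Named genes were the members, the 3 genes with the nearest profile to each, and up to 4 called genes with the largest ratio in MZdicer for each list but the maternal one. ELAVL3, FMR1, dhdds, pou5f3, CCNA1, the Piwi genes and the further TNRC6 genes were named after their values were seen.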

Additional observations from a re-analysis of the deposited data

How the results depend on the processing

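The number of Argonaute genes called kept within 1.5 times its main value in 110 of 120 combinations of comparison and alternative. Part of this was fixed in advance. The other filters could not change the number, since all 4 genes pass them and the ratios do not use the filter. ago2 and ago3b have the same counts in all 3 count columns, so for them these columns alter the scaling only. No called ratio changed direction under any alternative, but all alternatives reuse the same counts. The scalings moved genes by less than the 2-fold of a call, so scaling alone could not reverse one. At a 1.5-fold threshold the number called was 3 in place of 1 for the hairpin against MZdicer, 1 in place of 0 for the 3xPS hairpin against MZdicer, 3 in place of 1 for the duplex against wild type, 2 in place of 0 for the hairpin against the duplex and 2 in place of 1 for the 3xPS form against the plain hairpin. At a 3-fold threshold it was 1 in place of 2 for the duplex against MZdicer, 0 in place of 1 for the 3xPS form against the plain hairpin and 1 in place of 2 for the 3xPS hairpin against the duplex. Within the 1.5 times allowed, ago2 also lost its call at 3-fold in MZdicer against wild type, 3 in place of 4. It lost it against wild type in the hairpin library (2 in place of 3) and the 3xPS library (3 in place of 4) as well. With either further count column the number called was 2 in place of 1 for the duplex against wild type. ago1 in the hairpin library against wild type was also called with total-count scaling, at 2.01-fold. The authors' RPKM gave the same ratio, being scaled to the column's sum, so they are no separate check. No interval was used for the RPKM calls. Over all genes, the higher counts moved by over 1.5 times in 36 of 120 combinations and the lower in 46 of 120, mostly through the fold threshold and the filter. A threshold on CPM + 0.5, added later, gave 212 in place of 333 higher genes for the duplex against MZdicer, 69 in place of 150 for the hairpin and 64 in place of 148 for the 3xPS hairpin. Without a filter the lower genes of the 3xPS hairpin against the hairpin were 190 in place of 54. By correlation in place of the root mean square difference, only SLC12A8 among the 12 like genes stayed among the nearest 3. Depth limits ago1 and ago3a most, with 92 and 106 counts in wild type. No paired analysis was possible because each group has 1 library.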
